A study of Mus musculus with 6 samples.

Results

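The 78 genes described here are named for proteins of the mitochondrial ribosome, which all but 1 of them (Mrps36) encode. They were chosen by their symbols, as all genes of the deposited tables named Mrpl or Mrps with a number and at most 1 further letter, and make up 78 of the 55401 genes in the count table. By symbol, 49 are large-subunit (Mrpl) and 29 small-subunit (Mrps) genes. The group was put forward with results of the tumour and liver comparison already known, so the tumour and liver values of its members are a description and no support is drawn from their tests. Tumours of the peritoneal surface, 3 epithelioid hemangioendotheliomas (EHE), were set against 3 livers, all from mice of the C57BL6 strain. EHE is a cancer of cells with endothelial features, and the series title calls the mouse model genetically engineered, but the labels used here give no allele, Cre driver, treatment, sex or age for either group. Polyadenylated RNA was sequenced once per sample. Whether each sample came from its own animal is not stated in the labels, and p-values then cover only the spread among these samples, which may be technical. Tumour state and the tissue compared cannot be told apart in this design.

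The mitochondrial ribosome, or mitoribosome, sits in the mitochondrial matrix and translates the few mRNAs made from mitochondrial DNA, all of which encode subunits of the respiratory chain and ATP synthase. Its ribosomal RNAs come from mitochondrial DNA, whereas its proteins are encoded in the nucleus, made on cytosolic ribosomes and imported. The small subunit binds the mRNA and decodes it, and the large subunit joins the amino acids and releases the chain at the inner membrane. Liver is rich in mitochondria.

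Symbols and structure differ for a few members. Mrps30 and Mrps18a carry small-subunit names, but their proteins sit in the large subunit, and Mrps36 was later found to be a subunit of the oxoglutarate dehydrogenase complex. By structure, 51 members belong to the large subunit, 26 to the small subunit and 1 to neither, and this grouping is used throughout. A bacterial counterpart is known for 46 of the 77 mitoribosomal members, and the other 31 are proteins that mitochondrial ribosomes gained. The genes lie on 17 chromosomes, with 11 on chromosome 11 and 8 on chromosome 17.

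Libraries held 33881392 to 40277346 counts. The 8 hepatocyte markers (Alb, Ttr and others) took 10.6% to 13.6% of counts in livers and 0.00125% to 0.00233% in tumours, where 1 or 2 of the 8 were at 0 counts in each library. The 8 endothelial markers (Pecam1, Cdh5 and others) summed to 1707 to 3312 CPM (counts per library of fixed size, here with the TMM factors explained later) in tumours and 121 to 163 CPM in livers, none at 0 in any library. The 8 skeletal muscle markers summed to 1509, 11554 and 2733 CPM in tumours 1 to 3 but to 1.49 to 1.91 CPM in livers. The 6 leukocyte markers were also highest in tumour 2, at 2499 CPM against 643 and 576 CPM in tumours 1 and 3. Liver 2 stood apart from livers 1 and 3, with 33274 genes with counts against 19767 and 19001. In bulk tissue, fewer cells of a type and less RNA per cell cannot be told apart.

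The promoters of 69 members were found among RefSeq windows on GRCm38.p6 that run from 250 bases before to 50 bases after the start of a gene, with 75 windows in all. Windows were searched on both strands for the letters CCGGAAG (ETS factors, including GABP), GCGCATGCG (NRF1), AAGATGGC (YY1) and CACGTG (the E-box), which do not hold each other. These factors are known as regulators of nuclear genes for mitochondrial proteins. The sequences shown run from 100 bases before the RefSeq start to 30 bases from it. Where a neighbouring gene starts nearer, the bases before are cut to the distance between the GENCODE starts of the 2 genes. RefSeq and GENCODE place the start of Mrpl57 5 bases apart, so its stretch begins near the neighbour's start and not at it. Capitals mark the motif letters. Mrps18a, Mrpl22 and Mrps27 are shown because motifs of 2 kinds stand within 100 bases of the start. Mrpl36 also has this, with the E-box 43 bases and the YY1 letters 30 bases before the start, and is not shown. Mrpl57 shares its short upstream stretch with a neighbour described later, and Mrps6 and Mrpl14 had the highest and the lowest fold change among the members.

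Mrps18a: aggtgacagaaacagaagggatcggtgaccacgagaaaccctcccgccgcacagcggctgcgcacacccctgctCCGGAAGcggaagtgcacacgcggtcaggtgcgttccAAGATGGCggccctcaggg
Mrpl22: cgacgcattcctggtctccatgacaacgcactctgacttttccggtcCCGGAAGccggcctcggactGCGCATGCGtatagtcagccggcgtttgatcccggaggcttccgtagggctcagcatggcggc
Mrps27: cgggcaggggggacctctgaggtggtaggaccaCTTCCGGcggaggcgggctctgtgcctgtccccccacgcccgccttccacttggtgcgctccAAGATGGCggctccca
Mrpl57: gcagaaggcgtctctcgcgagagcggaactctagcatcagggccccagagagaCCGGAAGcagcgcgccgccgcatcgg
Mrps6: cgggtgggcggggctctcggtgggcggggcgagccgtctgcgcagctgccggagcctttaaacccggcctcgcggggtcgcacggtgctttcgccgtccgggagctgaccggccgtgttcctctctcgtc
Mrpl14: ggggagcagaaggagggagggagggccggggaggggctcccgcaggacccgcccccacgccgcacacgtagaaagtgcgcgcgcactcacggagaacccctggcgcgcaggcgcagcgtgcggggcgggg

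All 6 stretches are on the plus strand: chr17:46110904-46111033 (Mrps18a), chr11:58171564-58171693 (Mrpl22), chr13:99344705-99344815 (Mrps27), chr14:57826190-57826268 (Mrpl57), chr16:92058236-92058365 (Mrps6) and chr17:45686249-45686378 (Mrpl14). The stretches of Mrps6 and Mrpl14 held none of the 4 letter strings. The ETS letters occurred in 26 of the 75 member windows, or 34.7%. The same letters stood in 8.86% of all 32851 windows, in 15.3% of the 14763 windows of protein-coding genes tested, and in 36.4% of the 66 windows of cytosolic ribosomal protein genes. The ETS share of the members was thus close to that of the cytosolic ribosomal protein genes. The ETS letters lay near the start, with 28 of 31 matches within 100 bases of it.

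The NRF1 letters stood in 9.33% of member windows against 3.12% of windows of protein-coding genes tested and 4.55% of cytosolic ribosomal windows. The YY1 letters stood in 16.0% of member windows against 3.81% and 10.6%. The E-box stood in 9.33% of member windows and in 9.33% of windows of protein-coding genes tested. The 7 member windows with it belong to 5 members, because overlapping windows of Mrpl2 hold the same site. Any of the 4 was found in 56.0% of member windows, 27.7% of windows of protein-coding genes tested and 59.1% of cytosolic ribosomal windows. A match is only a match of letters, and these shares are descriptions without a test.

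Counts were compared after 2 scalings, because the 6 libraries differ in the make-up of their RNA. TMM scaling (trimmed mean of M-values) sets the bulk of genes level between libraries and gave factors of 1.52, 1.54 and 1.62 for tumours and 0.631, 0.682 and 0.612 for livers. Scaling by library totals leaves each gene as its share of all counts. The median log2 fold change, tumour over liver, of all 17387 genes tested was 0.10 with TMM factors and 1.38 with totals. With totals taken without the 100 most abundant genes it was 0.77. The sign of the fitted fold change differed between the scalings for 34 of the 77 members tested and was negative under both for 41.

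With TMM factors, transcripts of the mitochondrial ribosome were lower in tumours than in livers across both subunits. Of 77 members tested, 69 were called lower and 0 higher by edgeR's quasi-likelihood test (called at an adjusted p under 0.05), while 8 were not called. Over all genes tested, 28.7% were called lower and 29.5% higher. The median log2 fold change of the members was -1.33, which is 2.51-fold lower in tumours, and the quartiles of the members were -1.67 and -1.02. Every tumour was below every liver in 71 of 77 members and every tumour was above every liver in 0, where 33.1% and 35.1% of all genes tested did so. These counts describe the contrast on which the group was put forward.

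With library totals alone, the fold changes of the members lay around 0. The test called 11 members higher and 16 lower, while 50 did not pass, and 61.5% of all genes were called higher and 12.5% lower. The median of the members was -0.04 on the log2 scale. A change of scaling shifts all genes by nearly the same amount, so by construction the distance from the median of all genes hardly depends on it. That distance was -1.43 with TMM factors, and 76 of the 77 members lay below the median of all genes, with Mrps6 above it. It does depend on which genes and values are taken, at -1.09 with FPKM, -0.71 without a low-count filter and -0.69 with DESeq2. Of all genes tested, 20.1% had a TMM fold change below the median of the members.

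**Figure D1:**
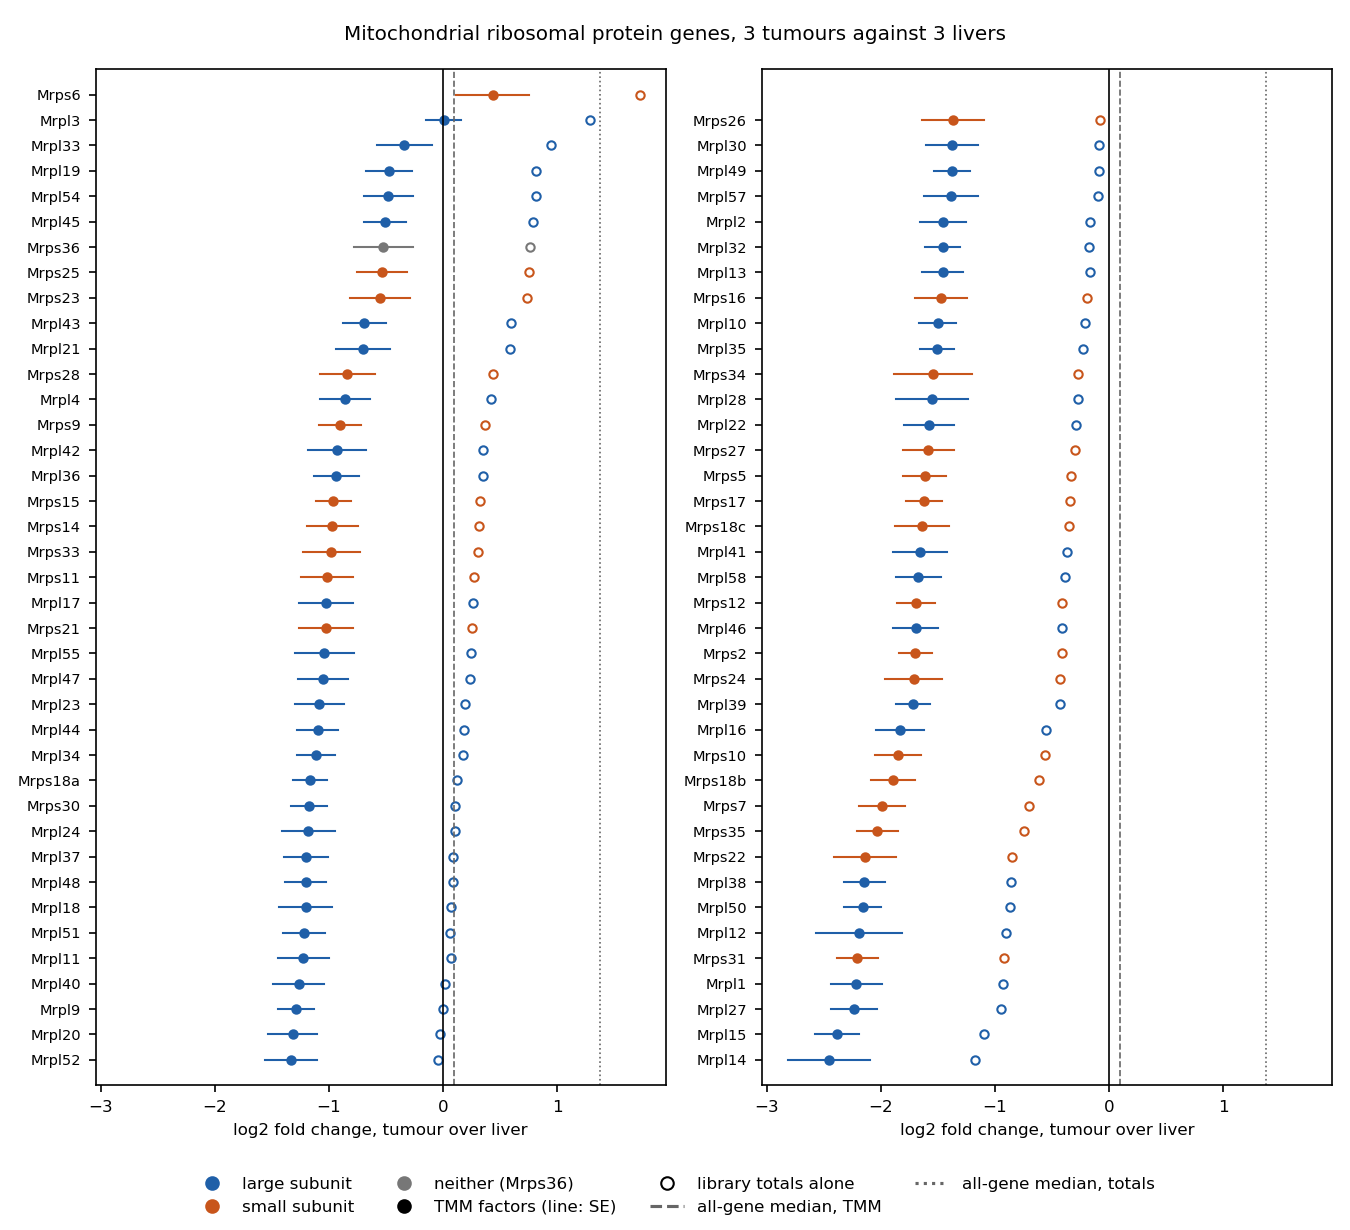
Log2 fold change, tumour over liver, of each of the 77 members tested, ordered from highest to lowest, with TMM factors (filled, line = SE) and with library totals alone (open), coloured by subunit. Filled points of 75 members lie left of 0, open points straddle 0, and under each scaling all members but Mrps6 lie left of the dashed or dotted median of all genes.

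Summed over the members, the share of all counts of tumours 1 to 3 was 0.187%, 0.230% and 0.205%, and that of livers 1 to 3 was 0.263%, 0.208% and 0.206%. The groups overlapped on this measure. The same sums with TMM factors were 1234, 1495 and 1263 CPM in tumours and 4169, 3050 and 3371 CPM in livers, without overlap. Ratios of summed counts within a library need no scaling. Members amounted to 6.76%, 8.77% and 6.66% of the counts of 76 cytosolic ribosomal protein genes in tumours, and to 16.1%, 20.6% and 18.8% in livers. Every tumour was below every liver, so relative to the cytosolic ribosome the transcripts of the mitochondrial ribosome were less abundant in tumours under any scaling. The cytosolic genes took on average 2.82% of counts in tumours and 1.25% in livers, while the shares of the members overlapped. Relative to 77 nuclear genes of the respiratory chain, members amounted to 27.3%, 17.4% and 28.7% in tumours and to 21.4%, 19.1% and 22.4% in livers. Here the groups overlapped, with tumour 2, the library highest in muscle markers, below every liver and tumours 1 and 3 above every liver.

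**Figure D2:**
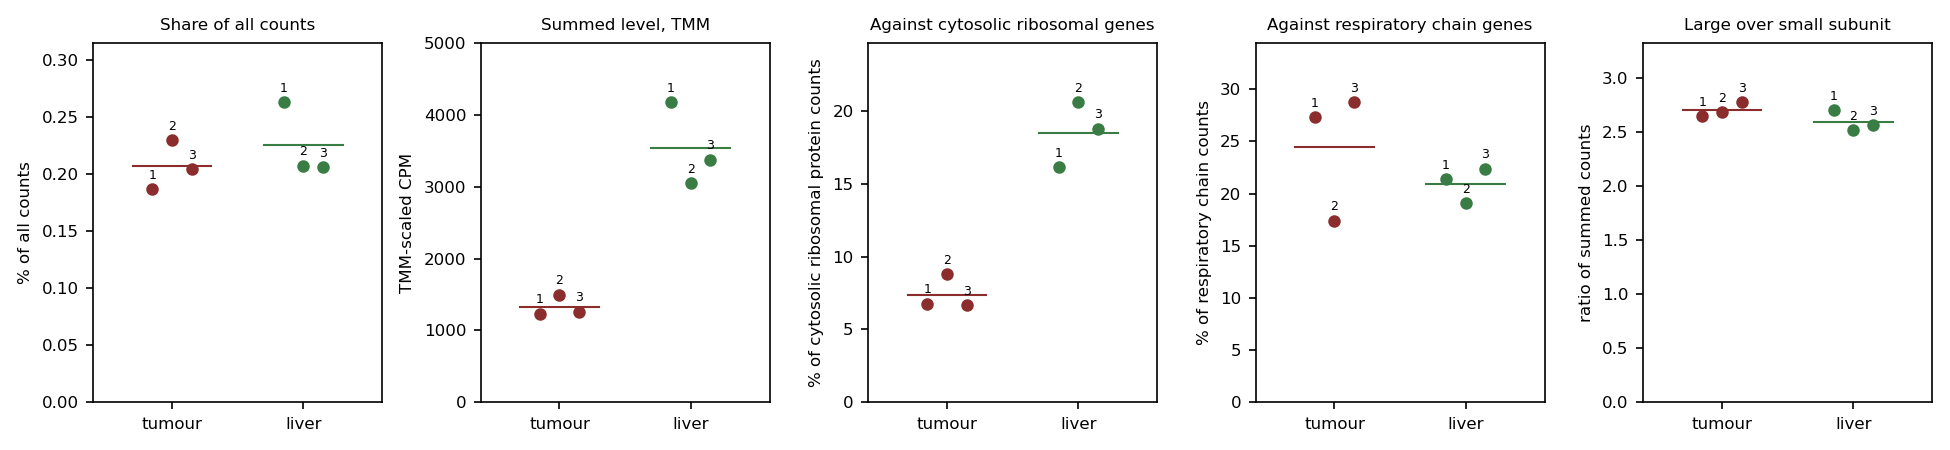
Summed values of the members in each library (points, numbered by replicate, with line = group mean of 3): share of all counts, TMM-scaled CPM, percent of cytosolic ribosomal protein counts, percent of respiratory chain counts, and the large over small subunit ratio. Tumours lie below livers in the second and the third panel, and the groups overlap in the others.

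Large- and small-subunit members had overlapping values. Summed counts of large-subunit members were 2.65, 2.69 and 2.78 times those of small-subunit members in tumours and 2.70, 2.52 and 2.56 times in livers. The ranges overlapped through liver 1. With TMM factors, 46 of 50 large-subunit members tested were called lower, with a median log2 fold change of -1.28, and 23 of 26 small-subunit members, with a median of -1.56. With totals, 7 large-subunit members were called higher and 9 lower (median 0.01), and 3 small-subunit members higher and 7 lower (median -0.28). The large-subunit median exceeded the small-subunit median by 0.29 on the log2 scale, by 0.17 when subunits were read from the symbols, and by 0.15 without the 10 members that share 20% or more of their exonic bases with another annotated gene. Leaving out tumour 3 gave 0.149. The quartiles overlapped, at -1.57 and -1.06 for the large and -1.71 and -0.97 for the small subunit.

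Members were also grouped by the origin of the protein and its place on the ribosome. Of 46 members with a bacterial counterpart, 42 were called lower (median -1.35), and of 30 tested members without one, 27 (median -1.35). All 7 members of the central protuberance, the crest of the large subunit, were called lower, with a median of -1.26. All 6 members around the polypeptide exit were called lower, with a median of -1.07. Of the 4 members tested in the stalk that recruits translation factors, 3 were called lower (median -1.36), and Mrpl54 did not pass.

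Mrps6, on chromosome 16 (92058270 to 92112227, plus strand, GRCm38), encodes a small-subunit protein with a bacterial counterpart. It was measured at 10.6, 7.45 and 10.6 CPM in tumours and at 9.86, 4.99 and 6.40 CPM in livers, with TMM factors. The groups overlapped, and the log2 fold change was 0.43 ± 0.32 (SE), adjusted p = 0.283. With totals alone it was called higher, at 1.73 with adjusted p = 0.00241. The gene Slc5a3, a myo-inositol transporter, lies within Mrps6 on the same strand, and genes there share 19.9% of the exonic bases of Mrps6. Slc5a3 had 1374, 506 and 688 counts in tumours and 72, 149 and 90 in livers, so it was higher in tumours, and its part in the value of Mrps6 was not tested.

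Mrpl3, on chromosome 9 (105053239 to 105079888), encodes a large-subunit protein of the core near the peptidyl transferase centre. Its levels were 29.3, 36.9 and 31.1 CPM in tumours and 33.2, 32.7 and 30.9 CPM in livers. They overlapped, with means of 32.4 ± 3.94 CPM (SD, n = 3) and 32.3 ± 1.24 CPM (SD, n = 3). The fitted log2 fold change was 0.01 ± 0.15 (SE) with TMM factors and 1.29 with totals (adjusted p = 0.000422).

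The next 3 members in this order, Mrpl33, Mrpl19 and Mrpl54, are large-subunit genes, the first and the second with bacterial counterparts. Mrpl33 stood at 9.58, 12.5 and 12.9 CPM in tumours and 18.7, 13.5 and 12.01 CPM in livers. Mrpl19 stood at 10.95, 11.6 and 9.35 CPM in tumours and 16.4, 12.4 and 15.5 CPM in livers. Mrpl54 stood at 19.8, 22.7 and 23.6 CPM in tumours and 37.8, 23.1 and 31.3 CPM in livers. Mrpl19 had every tumour below every liver, while the groups of Mrpl33 and Mrpl54 overlapped. Their log2 fold changes were -0.34 ± 0.24, -0.47 ± 0.20 and -0.48 ± 0.21 (SE), with adjusted p of 0.268, 0.0849 and 0.0916 by edgeR. With totals all 3 were called higher, at 0.95, 0.81 and 0.81.

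The 8 members that did not pass with TMM factors (Mrps6, Mrpl3, Mrpl33, Mrpl19, Mrpl54, Mrps23, Mrps25 and Mrps36) were each called higher with totals. A further 3 members, Mrpl21, Mrpl43 and Mrpl45, were called lower with TMM factors and higher with totals, so their direction is set by the scaling.

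At the other end, 16 members were called lower under both scalings. They were Mrpl1, Mrpl12, Mrpl14, Mrpl15, Mrpl16, Mrpl27, Mrpl38, Mrpl39, Mrpl50, Mrps2, Mrps7, Mrps10, Mrps18b, Mrps22, Mrps31 and Mrps35. Their transcripts were a smaller share of the RNA in tumours, whereas most genes tested had a larger share there.

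Mrpl14, on chromosome 17 (45686322 to 45698495, plus strand), encodes a large-subunit protein at the face between the subunits and had the lowest fold change. It stood at 11.04, 20.3 and 11.1 CPM in tumours and 110, 65.6 and 57.1 CPM in livers. Tumour 2 and liver 1 were the high libraries of their groups, and the groups did not overlap. The log2 fold change was -2.46 ± 0.36 (SE), adjusted p = 0.00113 by edgeR, and -1.18 with totals (adjusted p = 0.0179).

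Mrpl15, on chromosome 1 (4773206 to 4785739, minus strand), encodes another core protein of the large subunit. It stood at 24.2, 25.1 and 25.7 CPM in tumours and 161, 111 and 120 CPM in livers. The tumours were tightly grouped and far below the livers, with a log2 fold change of -2.39 ± 0.20 (SE) with TMM factors and -1.10 with totals.

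Mrpl27, whose bacterial counterpart reaches into the peptidyl transferase centre, stood at 8.91, 11.6 and 10.4 CPM in tumours and 56.7, 39.8 and 48.9 CPM in livers. Mrpl1, a protein of the mobile stalk at the exit site for tRNA, stood at 9.28, 12.4 and 9.61 CPM in tumours and 59.2, 38.0 and 48.1 CPM in livers. Mrps31, a small-subunit protein without a bacterial counterpart, stood at 8.33, 11.4 and 9.11 CPM in tumours and 44.2, 42.9 and 46.0 CPM in livers. None of the 3 overlapped between groups, and their log2 fold changes were -2.23 ± 0.20, -2.21 ± 0.23 and -2.21 ± 0.18 (SE), with adjusted p of 0.000115, 0.000209 and 7.12e-05. With totals they were -0.94, -0.93 and -0.92, each called lower.

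Mrps18a, Mrps18b and Mrps18c are paralogs named after a small-subunit protein of bacteria, and Mrps18c is the one counted here as its counterpart. Their proteins differ in place, since that of Mrps18a lies in the large subunit and the other two lie in the small. Mrps18a (chromosome 17, 46110986 to 46128910) stood at 20.6, 23.6 and 21.5 CPM in tumours and 51.0, 44.7 and 51.3 CPM in livers. Mrps18b (chromosome 17, 35910379 to 35916389) stood at 6.30, 6.94 and 5.196 CPM in tumours and 23.9, 21.2 and 23.5 CPM in livers. Mrps18c (chromosome 5, 100798627 to 100804471) stood at 5.67, 6.82 and 6.80 CPM in tumours and 24.7, 15.6 and 19.8 CPM in livers. None overlapped, with log2 fold changes of -1.16 ± 0.15, -1.90 ± 0.19 and -1.64 ± 0.23 (SE), and with totals Mrps18b alone of the 3 was called (-0.62, adjusted p = 0.0255). Other annotated genes share 30.5% and 23.2% of the exonic bases of Mrps18b and Mrps18c and none of those of Mrps18a.

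Within groups, the median coefficient of variation of the members was 14.4% among tumours and 17.5% among livers. Over all genes tested it was 25.4% and 22.1%. The genes were not matched for level, and the part of level in this difference was not tested. Tumour 2 was the highest tumour for 56 of 77 members and liver 1 the highest liver for 70, while liver 2 was the lowest liver for 63. The median member in tumour 2 was 1.21 times the mean of tumours 1 and 3. Above 1.5 times stood 7 members, led by Mrpl12, the stalk protein that binds translation factors, at 1.91 times, Mrpl14 at 1.84 and Mrpl42 at 1.75. Below the mean of the other tumours stood 12 members, with Mrps6 lowest at 0.701 times. Mrpl12 varied most in both groups, with 28.2, 51.8 and 26.1 CPM in tumours and 231, 117 and 135 CPM in livers. Tumour 2 was also highest in muscle and leukocyte markers and in respiratory chain transcripts (8583 CPM against 4517 and 4396 CPM). Without tumour 2, 71 members were called lower, and without libraries 2 of both groups 74, each with 0 called higher.

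FPKM values, in which fragments are scaled by transcript length and library size, allow levels to be compared between members. Of the 78 members, 73 had no FPKM of 0, and their median level per library was 25.4, 28.4 and 27.3 FPKM in tumours and 31.6, 23.4 and 28.2 FPKM in livers. These medians overlapped between groups, as shares of all counts did. Lowest in every library was Mrpl19, at 3.14, 3.61 and 2.96 FPKM in tumours and 2.098, 1.72 and 2.26 FPKM in livers. Mrps25, a small-subunit gene, was also low at 4.91, 5.76 and 4.79 FPKM in tumours and 2.89, 2.46 and 2.57 FPKM in livers, and in both genes every tumour was above every liver on this scale. Mrpl1 was among the 3 lowest in tumours, at 4.21, 6.07 and 4.62 FPKM, but stood at 14.5, 7.47 and 9.64 FPKM in livers, every one above the tumours. Mrps30 stood at 7.97, 8.40 and 7.47 FPKM in tumours and 7.98, 6.63 and 7.67 FPKM in livers, where the groups overlapped.

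At the top stood Mrpl52, at 127, 128 and 136 FPKM in tumours and 195, 108 and 122 FPKM in livers. Mrps21 followed in tumours with 96.2, 137 and 115 FPKM, against 126, 87.6 and 84.0 FPKM in livers, and the 2 genes did not differ beyond their spread in tumours. Mrpl42 stood at 72.6, 131 and 86.1 FPKM in tumours and 92.5, 73.4 and 75.7 FPKM in livers. All 3 overlapped between groups. Mrpl14 was among the 3 highest in livers, at 161, 94.3 and 81.4 FPKM, and stood at 30.9, 68.0 and 31.5 FPKM in tumours, all below the livers. Mrps6 stood at 35.0, 22.8 and 32.7 FPKM in tumours and 13.6, 6.78 and 9.01 FPKM in livers, so among levels per length it was near the median of the members in tumours and well under it in livers. Across 73 members, the order of mean levels was alike in both groups (Spearman's rho 0.81), a description across genes that share their lengths and annotation. By limma on log2(FPKM + 1), 9 members were called higher and 19 lower of 77 tested, where 63.2% and 14.9% of all genes tested were called higher and lower.

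**Figure D3:**
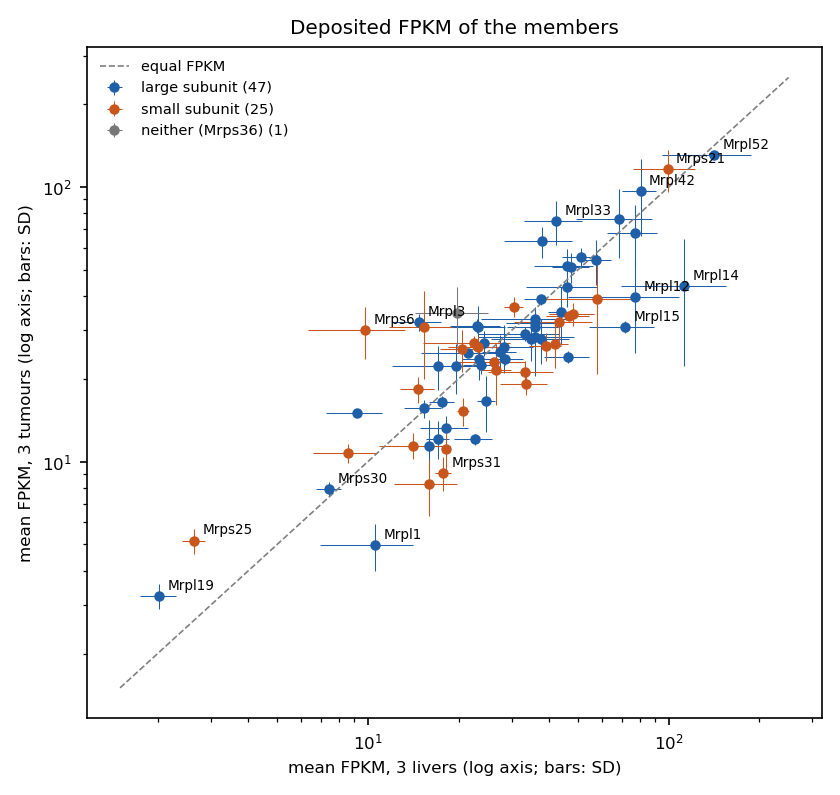
Mean deposited FPKM of 73 members in 3 livers (x) and 3 tumours (y), both on log axes, with SD bars, coloured by subunit, and a dashed line of equal FPKM. Members run along the line from Mrpl19 to Mrpl52, with Mrps6 and Mrpl33 above it and Mrpl14, Mrpl15 and Mrpl12 below.

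For some members the 2 deposited measures differ. Mrpl53, a stalk protein on chromosome 6, had 0 counts in all 6 libraries and was the member not tested, yet its FPKM was 31.2, 35.3 and 32.6 in tumours and 49.4, 25.7 and 32.6 in livers. Of its exonic bases in GENCODE, 88.0% are shared with Gm42688 or Ccdc142os. Mrps34 shares 77.8% of its exonic bases with Mapk8ip3 or Nme3. It had 349, 316 and 162 counts in tumours and 363, 270 and 327 in livers, while its FPKM in tumours was 32.0, 38.4 and 33.3. Tumour 3 was thus the low tumour by counts and not by FPKM. Mrps25 shares 69.8% with Nr2c2, Mrpl19 36.0% with Gcfc2 and Mrpl43 33.4% with Twnk. Conversely, an FPKM of 0 was listed beside 100 or more counts for 5 members, namely Mrpl47 in all libraries, Mrps26 in all tumours, Mrpl18 in livers 1 and 3, Mrpl48 in tumours 1 and 3 and Mrpl27 in tumour 1. Mrpl47 was therefore not tested on FPKM, and the FPKM fold changes of the other 4 rest on those listed zeros.

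Nuclear-encoded partners of the mitoribosome were also lower with TMM factors. The 5 mitoribosomal proteins with other names (Dap3, Ptcd3, Chchd1, Aurkaip1 and Gadd45gip1) were all called lower, from Dap3 at -0.94 ± 0.17 to Chchd1 at -1.24 ± 0.26 (SE, log2). Of 11 translation factors 10 were called lower (median -1.33), led by Tufm, the elongation factor that brings tRNA to the ribosome, at -1.83 ± 0.24. Of 26 assembly factors 21 were called lower (median -1.12), led by Tfb1m, a methyltransferase of the small ribosomal RNA, at -2.24 ± 0.26. Of 17 mitochondrial aminoacyl-tRNA synthetases 14 were called lower (median -1.15), led by Fars2, which charges phenylalanine, at -2.09 ± 0.21. Of 10 tested genes of mitochondrial transcription and mRNA handling 7 were called lower (median -1.19), led by Lrpprc, a stabiliser of mitochondrial mRNAs, at -2.005 ± 0.25. None of these 5 lists had a member called higher with TMM factors, where 28.7% of all genes tested were called lower and 29.5% higher. The shares of all genes with totals were 61.5% higher and 12.5% lower. With totals, 0 of the 5 other-named proteins, 2 translation factors, 6 assembly factors, 4 synthetases and 2 genes of transcription and handling were called higher, and 0, 0, 1, 1 and 2 lower.

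With TMM factors, nuclear genes of the respiratory chain and the mRNAs that the mitoribosome translates had medians near that of the members. Of 76 tested nuclear respiratory chain genes 71 were called lower (median -1.49), from Ndufa11 at -0.76 to Uqcrq at -2.76, and 0 higher. With the same factors, 28.7% of all genes tested were called lower and 29.5% higher. Of the 13 mRNAs of the mitochondrial genome 6 were called lower (median -1.42), led by mt-Atp8 at -1.96 ± 0.49, and with totals 0 were called in either direction. Per count of the members, mitochondrial mRNAs had 12.5, 32.0 and 17.4 counts in tumours and 18.2, 33.0 and 16.5 in livers, so the groups overlapped. Cytosolic ribosomal protein genes differed from the members, with 0 of 76 called higher and 2 lower (Rpl10 at -0.86 and Rps2 at -0.73), and a median of -0.08. With totals 67 of the 76 were called higher, with a median of 1.21. All genes tested had a median of 1.38 with totals, and 61.5% were called higher and 12.5% lower.

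**Figure D4:**
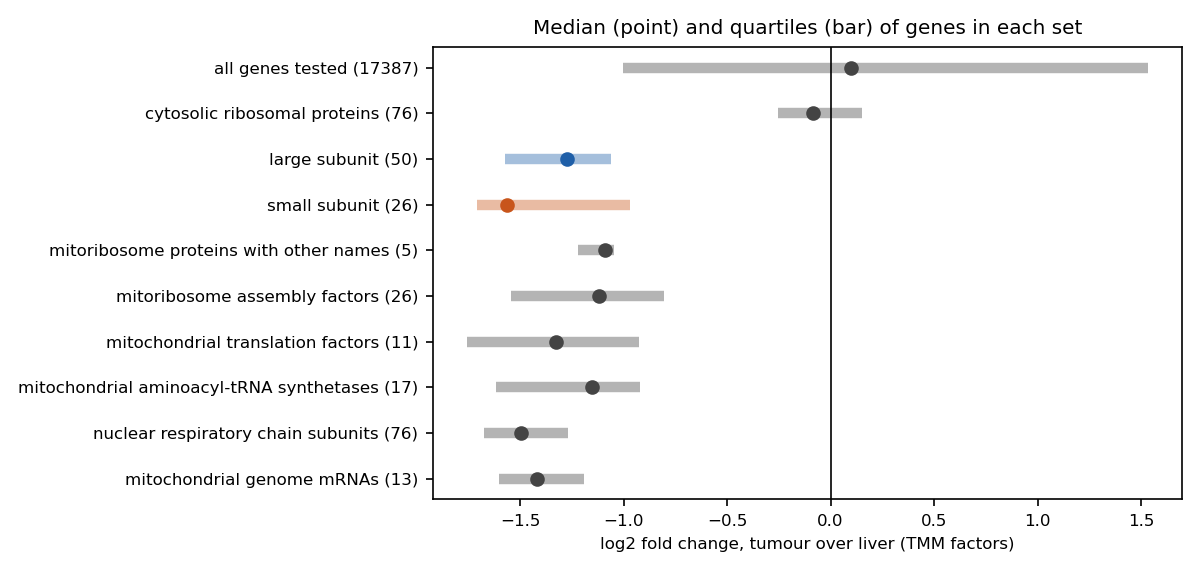
Median log2 fold change, tumour over liver with TMM factors, of gene sets (points), with bars between the quartiles of each set and the number tested in brackets. Both subunits and the 6 other mitochondrial sets plotted have medians between -1.56 and -1.09, whereas cytosolic ribosomal proteins (-0.08) and all genes (0.10) lie near 0.

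Among 10 nuclear regulators of mitochondrial genes, 4 were called higher and 2 lower with TMM factors, where 29.5% and 28.7% of all genes tested were. Myc, a transcription factor that raises ribosome production, was highest, at 39.2 CPM in tumours and 6.52 CPM in livers on average (log2 fold change 2.59 ± 0.33, SE). Nrf1, whose letters were searched in the promoters, was called higher at 0.83 ± 0.17. The GABP subunits went apart, with the DNA-binding Gabpa called lower at -0.51 ± 0.15 and its partner Gabpb1 called higher at 1.73 ± 0.21. Ppargc1b, a co-activator of respiratory genes, was called lower at -1.62 ± 0.56. With totals 8 of the 10 were called higher and 0 lower, where 61.5% and 12.5% of all genes tested were, Gabpa among the higher at 0.77.

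Many members start close to a gene on the other strand. In GENCODE on GRCm38, 33 of the 78 members (42.3%) had the start of a protein-coding gene on the opposite strand within 1000 bases, compared with 14.5% of 14690 protein-coding genes tested. Within 500 bases the shares were 32.1% and 12.02%. Starts on either side were taken for members and other genes alike. Pairs whose genes overlap at their starts, such as Mrpl46 with Mrps11, are therefore included. Several neighbours are themselves mitochondrial: Mrpl36 lies next to Ndufs6, Mrpl47 next to Ndufb5, Mrps12 next to Sars2, Mrps27 next to Ptcd2 and Mrpl43 next to Twnk, the mitochondrial DNA helicase. Mrpl46 and Mrps11, a large- and a small-subunit gene, start 412 bases apart, at log2 fold changes of -1.70 and -1.02.

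With TMM factors, the neighbour was called lower in 17 of the 31 pairs with both genes tested, higher in 4 and neither in 10, where 28.7% of all genes tested were called lower and 29.5% higher. The median of the neighbours was -0.82. In 4 pairs a member called lower stood beside a neighbour called higher. Mrpl57, whose promoter stretch is printed above, starts 49 bases from Ska3, a protein of the kinetochore. Ska3 had 208, 95 and 124 counts in tumours and 12, 6 and 6 in livers (log2 fold change 2.81), while Mrpl57 stood at 12.002, 12.03 and 11.9 CPM in tumours and 41.9, 23.6 and 28.6 CPM in livers (-1.39). Mrpl51 starts 100 bases from Ncapd2, a condensin subunit. Ncapd2 had 2505, 1577 and 1183 counts in tumours and 109, 121 and 127 in livers (2.54), and Mrpl51 had 31.0, 39.7 and 26.9 CPM in tumours and 82.1, 71.2 and 73.7 CPM in livers (-1.22). The remaining pairs were Mrpl13 (-1.46) with Mtbp (1.89), starts 340 bases apart, and Mrpl44 (-1.10) with Wdfy1 (1.42), starts 125 bases apart. These genes overlap, as Mtbp shares 4.16% of the exonic bases of Mrpl13, and Wdfy1 shares 7.66% of those of Mrpl44. How strand was used in counting is not given, and the part of the overlap in the counts was not tested. In each of the 4 pairs the groups were apart in opposite directions for genes whose starts lie close together. The 6 markers of dividing cells summed to 283, 114 and 124 CPM in tumours and 11.03 to 12.8 CPM in livers, in the same order over tumours as Ska3, and their part in the neighbours' values was not tested. With totals the 4 members of these pairs were not called, at -0.10, 0.06, -0.17 and 0.19 in the order given. Across the 31 pairs Pearson's r of the log2 fold changes was -0.06, a description over pairs, of which Mrpl46 with Mrps11 enters in both directions.

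**Figure D5:**
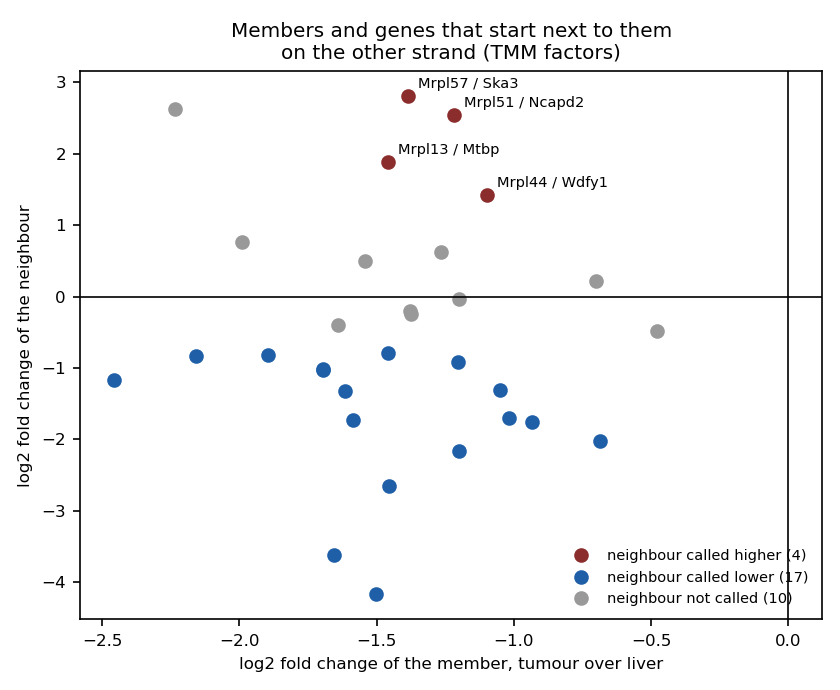
Log2 fold change, tumour over liver with TMM factors, of 31 members (x) and of the gene that starts next to each on the other strand (y), coloured by the call of the neighbour. Members all lie left of 0, whereas neighbours run from -4.17 to 2.81, with 4 called higher.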

How the data were processed

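The authors deposited whole-number counts per Ensembl gene for 6 libraries and Cufflinks FPKM values per library. The submitters' processing notes name HISAT2 2.1.0, Cufflinks and the build mm10. Counting tool, annotation and strand use: not given in the sources used here. Members that overlap other genes are therefore uncertain.

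Samples were grouped by title. Counts of genes kept by filterByExpr (17387 of 55401) were compared with edgeR 4.0.16 (TMM, robust quasi-likelihood, Benjamini-Hochberg adjusted p under 0.05) in R 4.3.3. CPM are TMM-scaled unless stated. FPKM were fitted with limma 3.58.1 on log2(FPKM + 1), at 1 or more FPKM in 3 libraries. The tests were checked on simulated data without a difference in RNA composition between the groups. That check therefore does not cover the choice of scaling. Coordinates and shared exonic bases come from GENCODE M21 on GRCm38.

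Members, lists and classes were chosen with earlier results of these data known. Named members were the 5 highest and 5 lowest fold changes, the 3 highest and 3 lowest mean FPKM per group, the Mrps18 paralogs and untested members, and from each list the called genes with the largest rise and fall. Mrpl12, Mrps34, members with listed zeros, neighbour pairs and further regulators were named after their values were seen. No libraries were duplicates (chi-square per degree of freedom 105 or more). Alternatives were RLE, upper-quartile and total scaling, totals without the 100 most abundant genes, other filters, DESeq2 1.42.0, limma-voom, FPKM, a replicate block and leaving out each library.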

Additional observations from a re-analysis of the deposited data

How the results depend on the processing

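RLE and upper-quartile factors, both other low-count filters, DESeq2 and limma-voom called 65 to 69 members lower and 0 higher, and leaving out each library in turn 62 to 71 lower. Library totals alone called 10688 genes higher and 2172 lower, with 11 members higher, 16 lower and medians of -0.043 (all), 0.010 (large subunit) and -0.28 (small subunit). Totals without the 100 most abundant genes called 7845 and 3123 genes, with 2 members higher, 43 lower and medians of -0.65, -0.60 and -0.89. Limma on log2(FPKM + 1) called 8625 and 2031 genes, with 9 members higher, 19 lower and medians of -0.11, -0.082 and -0.35. The median of members less that of all genes was -1.43, -1.09 with FPKM, -0.71 without a low-count filter and -0.69 with DESeq2, whose gene sets hold more genes of low counts, and -1.69 to -1.32 when leaving out each library (-1.69 without liver 2). The large minus small subunit median was 0.29, 0.17 by symbol, 0.15 for members with under 20% of exonic bases shared, and 0.149 to 0.306 when leaving out each library.

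Directions of named members reversed mainly with the scaling, in the order totals alone, totals without the 100 most abundant genes, and FPKM: Mrpl33 0.95, 0.34 and 0.82, Mrpl19 0.81, 0.20 and 0.49, Mrpl54 0.81, 0.20 and 0.74, and Mrps25 0.75, 0.14 and 0.76. With totals alone and FPKM they reversed for Mrpl42 (0.35 and 0.22), Mrps21 (0.26 and 0.24), Mrps30 (0.11 and 0.088) and Mrps18a (0.12 and 0.056). Mrpl3, near 0, was -0.0023 at 1 CPM in 3 libraries, -0.00021 with limma-voom, -0.066 without libraries 2 of both groups and -0.087 to 0.082 when leaving out each library (-0.087 without tumour 2, -0.0071 without liver 3). The cause was not tested.

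Same-numbered tumours and livers correlated at 0.02, 0.04 and -0.02 after centring each gene within its group. Unlike-numbered ones ran from -0.14 to 0.15. These values compare different tissues and cannot decide whether the numbers pair the samples, which the labels do not state. With the replicate number as a block, 66 members were called lower and 0 higher, and 4516 and 4574 genes higher and lower. Leaving out libraries 2 of both groups, dropping overlapping members and centring on all genes were chosen after seeing the data. With 3 libraries a group, depth limited the members little (115 to 5698 counts per library), and their number limits the precision.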
